A study of Mus musculus with 36 samples.

Results

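The genes described here are 39 genes of the cell cycle and DNA replication, listed by name with earlier results of these data known. They are D-type and E-type cyclins, cyclin-dependent kinases, the Mcm helicase subunits, replication fork and nucleotide enzymes, mitotic regulators, and checkpoint and repair genes. Of these, 38 had a probe set on the array that names 1 gene (all but Ccnb1), out of 18193 genes in all, and each was read from the probe set with the highest mean over the arrays. The filter on low levels left 31 of the 38 among 13924 genes tested. Cdk2, Cdc6, Top2a, Ccnb2, Bub1, Aurkb and Chek1 did not pass it.

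The arrays came from 18 adult heterozygous Cnp-eGFP-L10a mice of the C57BL/6 strain, in which the promoter of Cnp, a gene of oligodendrocytes, drives a green fluorescent tag on the ribosomal protein L10a. Every group carried this transgene, so no group without the tag was compared. From the forebrain of each mouse the tagged ribosomes were pulled down, which gave a bound sample, meant to hold RNA on oligodendrocyte ribosomes. The supernatant gave an unbound sample of the RNA left behind. It was made with a different RNA purification kit, so fraction and kit cannot be told apart. The 3 states had 6 mice each, and thus 6 bound and 6 unbound arrays each. Sleeping mice were killed between 3 and 5 pm, in the light, when they had been asleep for 75% or more of the 6 to 7 h before and their last sleep bout had passed 45 min. Waking mice were killed between 3 and 5 am, in the dark, when they had been awake for 70% or more of that window and their last waking bout had passed 1 h. Sleep-deprived mice were kept awake with objects for 4 h in the light after a dark phase spent mostly awake. Waking and sleeping mice therefore differed in clock time as well as in state, and the contributions of these cannot be told apart. Sleep-deprived and waking mice differed in the phase of light and dark and in being kept awake with objects, which cannot be told apart either.

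Cells enter the cycle when D-type cyclins activate Cdk4 and Cdk6, which phosphorylate the retinoblastoma protein and release E2F factors, and E2F factors then switch on cyclin E and the replication genes. The Mcm proteins form the helicase that opens origins, Pcna and replication factor C hold the polymerases on DNA, ribonucleotide reductase and thymidylate synthase supply nucleotides, and Cdk1 with cyclins A and B drives mitosis. In the adult forebrain myelinating oligodendrocytes are postmitotic, while oligodendrocyte precursors and progenitors of the subventricular zone still divide. Several of these proteins also act outside S phase: Pcna and replication factor C serve DNA repair, and D-type cyclins and Cdk4 are found in cells that do not divide.

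The E2F family binds replication genes at short promoter sites, and mitotic genes carry a CHR element and CCAAT boxes, so promoter windows were searched for these letters. RefSeq promoter sequences (GRCm38.p6, 250 bases before to 50 after the start site, 300 bases) were found for 33 of the 39 genes. Ccnd1, Ccnd2, Ccne2, Mcm4, Ccna2 and Aurkb were not matched. The E2F letters TTTCCCGC, TTTGGCGC, TTTCGCGC or TTTGCCGC, on either strand, were in 9 of 33 windows (27.3%), against 2.32% of the 27025 windows of all genes. CHR letters, TTTGAA or TTCGAA on either strand, were in 14 of 33 (42.4%) against 19.4%, and CCAAT on either strand in 24 of 33 (72.7%) against 37.9%. These are matches of letters in these windows, not measured binding, and E2F matches may overlap each other. The windows from 200 bases before to 20 bases after the start are shown for 4 genes: Mcm7, which was higher in bound RNA, and Rfc3, Cdc25b and Chek2, whose levels differed between states. Each is written in the direction of the gene, with E2F and CHR letters in capitals.

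Mcm7 (chr5:138171864-138172083, minus strand): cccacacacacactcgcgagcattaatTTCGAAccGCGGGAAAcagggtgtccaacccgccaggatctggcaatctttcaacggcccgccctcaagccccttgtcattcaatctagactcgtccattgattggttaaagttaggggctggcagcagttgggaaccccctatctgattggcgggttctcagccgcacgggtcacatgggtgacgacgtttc

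Rfc3 (chr5:151651189-151651408, minus strand): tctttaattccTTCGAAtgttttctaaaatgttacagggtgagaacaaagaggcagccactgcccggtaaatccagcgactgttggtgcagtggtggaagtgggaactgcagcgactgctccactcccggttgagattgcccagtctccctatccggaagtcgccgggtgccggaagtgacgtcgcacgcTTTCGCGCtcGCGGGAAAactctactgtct

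Cdc25b (chr2:131186748-131186967, plus strand): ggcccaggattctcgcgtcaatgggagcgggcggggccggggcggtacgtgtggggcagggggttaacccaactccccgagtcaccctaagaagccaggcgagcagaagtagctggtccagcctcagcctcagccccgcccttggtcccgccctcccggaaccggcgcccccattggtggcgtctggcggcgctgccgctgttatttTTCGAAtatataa

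Chek2 (chr5:110839783-110840002, plus strand): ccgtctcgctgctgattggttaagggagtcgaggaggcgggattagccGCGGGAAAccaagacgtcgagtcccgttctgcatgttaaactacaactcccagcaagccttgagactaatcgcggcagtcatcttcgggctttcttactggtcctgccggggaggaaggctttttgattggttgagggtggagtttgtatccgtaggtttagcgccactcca

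Mcm7 and Rfc3 held both kinds of letters in these windows, Chek2 held E2F letters, and Cdc25b held a CHR match close to the start site.

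Values are log2 signals from RMA, a method that summarises the probes of each probe set, and each group has 6 arrays. Array means were 5.91 to 5.93 by group in bound and 6.34 to 6.41 in unbound. As a check of the fractions, all 9 measured markers of mature oligodendrocytes were higher in bound (median 2.39), with a summed level of 16.30 to 16.45 on the log2 scale over bound arrays and 14.4 to 14.7 over unbound arrays. Of 9 oligodendrocyte precursor markers, 8 were lower in bound and Cspg4 was higher (median -1.78). All 7 tested neuroblast and progenitor markers, all 10 neuron markers and all 7 microglia markers were lower in bound. Of 8 astrocyte markers 7 were lower and S100b was higher (1.25). Of 4 tested endothelial markers 3 were lower and Kdr was higher (2.59). All 4 mural cell markers and the 2 tested red blood cell markers were lower. Neither fraction held RNA of 1 set of cells alone. The oligodendrocyte genes Mbp and Cnp had unbound means of 12.98 and 12.88. The neuron genes Snap25 and Nefl had bound means of 13.64 and 12.79. Of all measured precursor, neuroblast and neuron markers, Tnr, Nes and Igfbpl1 were near background in bound RNA and the others were above it. A level was called near background where its mean lay at or below the 95th percentile of 118 probe sets for olfactory, vomeronasal, trace amine and germline genes not expressed in brain (5.17 in bound, 5.40 in unbound).

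By that limit 18 of the 38 genes were near background in bound RNA and 12 in unbound RNA, and those 12 were near background in both. Among the 8 licensing and helicase genes 1 (Cdc6) was near background. Among the 11 mitotic genes 8 were near background in bound and 4 in unbound: Ccnb2, Bub1, Bub1b and Aurkb were low in both fractions, and Ccna2, Cdc25b, Plk1 and Mki67 were near background only in bound. All 3 checkpoint and repair genes (Chek1, Chek2 and Rad54l) were near background in both fractions by their means over 18 arrays.

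The comparison of fractions sets RNA pulled down with the tagged ribosomes against RNA left in the supernatant. There 25 of the 31 tested genes passed the test, 8 higher and 17 lower in bound. Of all genes tested, 83.6% passed (25.5% higher, 58.1% lower), so the share of 80.6% is near the background. The median difference of the 31 genes was -0.49, against -0.35 over all genes tested. Higher genes were 4 helicase subunits, Pcna, Rrm1, Cdk4 and Cdc20. The D-type and E-type cyclins, Cdk6, E2f1, Tyms, Rrm2 and 6 mitotic genes were lower, of which Bub1b, Cdk1 and Plk1, as well as Cdc45 and Chek2, changed sign after quantile normalization over all arrays. In bulk RNA a difference of fewer cells of a type cannot be told apart from one of less RNA per cell.

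**Figure D1:**
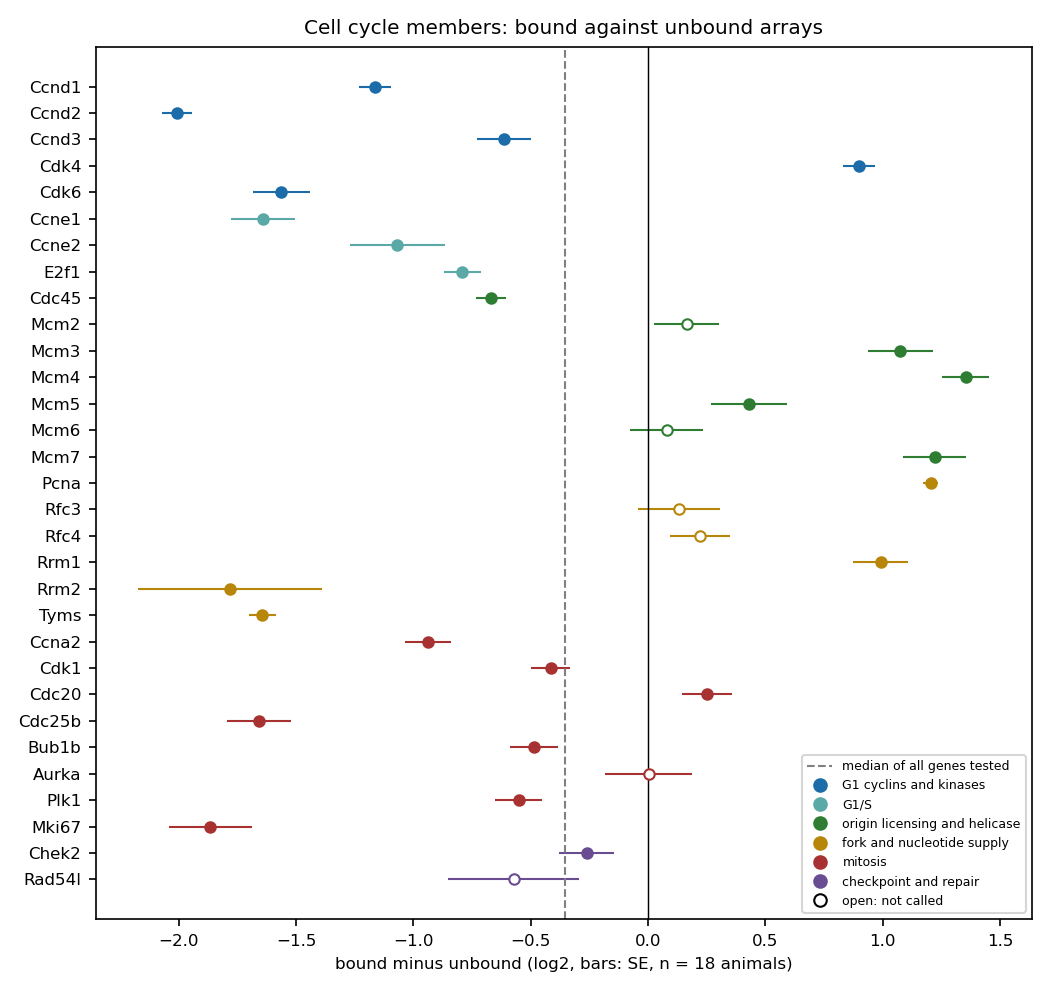
Difference between bound and unbound arrays of the same animal (log2, horizontal axis) for the 31 tested genes, coloured by role; points are means over 18 animals, bars the standard error, open points genes that did not pass the test, and the dashed line the median of all genes tested. The helicase genes lie to the right of the dashed line except Cdc45, while cyclins and most mitotic genes lie to the left; Bub1b, Cdc45, Cdk1, Chek2 and Plk1 changed sign after quantile normalization over all arrays.

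Of the origin licensing and helicase genes, 4 of 7 were higher in bound and 1, Cdc45, was lower (median 0.43). Mcm4, a helicase subunit, ran from 8.20 to 8.93 (median 8.51) in bound and 6.93 to 7.88 (median 7.14) in unbound arrays of sleeping mice. In waking mice it ran from 8.26 to 9.14 (median 8.93) in bound and 6.99 to 7.96 (median 7.15) in unbound, and in sleep-deprived mice from 8.76 to 9.28 (median 9.14) and 7.20 to 8.40 (median 7.92). Bound was above unbound without overlap in each state. The difference was 1.35 ± 0.10 (SE, n = 18 animals, limma adjusted p = 1.04e-10), higher in 18 of 18 animals. Mcm7, another helicase subunit, ran from 8.91 to 10.21 (median 9.77), 9.70 to 10.20 (median 9.94) and 9.67 to 10.35 (median 10.12) in bound arrays of sleep, waking and sleep deprivation. Its unbound arrays ran from 8.66 to 9.39 (median 8.93), 7.88 to 9.45 (median 8.44) and 7.98 to 9.08 (median 8.76). The ranges overlapped only in sleep. Mcm7 was higher in bound by 1.22 ± 0.14 (adjusted p = 4.91e-08), in 17 of 18 animals. Mcm3, also a subunit of this ring, ran from 6.50 to 8.10 (median 7.19), 6.93 to 7.80 (median 7.15) and 6.55 to 7.36 (median 6.70) in bound, and from 5.47 to 7.06 (median 5.76), 5.94 to 6.71 (median 6.04) and 5.52 to 6.29 (median 6.01) in unbound, in the same order of states. It was higher in bound in 18 of 18 animals, by 1.08 ± 0.14 (adjusted p = 4.04e-07), with overlap of ranges only in sleep, where unbound array 2 stood above the others. Mcm5 was higher by 0.43 ± 0.16 (adjusted p = 0.0188). As deposited Mcm2 and Mcm6 did not pass, with differences of 0.17 (95% interval -0.12 to 0.45) and 0.08 (-0.24 to 0.40). The other tested probe set of Mcm2 was called higher in bound (0.61, adjusted p = 0.00294), and that of Mcm5 was not called (0.44, adjusted p = 0.0882). Cdc45, which joins the helicase to activate it, was lower, by a log2 difference of -0.67 ± 0.06, in 18 of 18 animals (adjusted p = 6.5e-09), as deposited but not after quantile normalization over all arrays. Other probe sets had the same direction in these cases: all 5 probe sets of Mcm3, all 4 of Mcm7 and both of Mcm4 were higher in bound, and both of Cdc45 were lower.

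At the fork and in nucleotide supply, the 6 tested genes were split, 2 higher and 2 lower. Pcna, the sliding clamp of the polymerases, had the smallest standard error of the 31 genes. In bound RNA its arrays ran from 11.97 to 12.09 (median 12.03) in sleep, 12.002 to 12.35 (median 12.16) in waking and 12.10 to 12.27 (median 12.13) in sleep deprivation. In unbound RNA they ran from 10.77 to 10.99 (median 10.86), 10.73 to 10.92 (median 10.86) and 10.86 to 11.08 (median 11.04). Every bound array stood above every unbound array, and the difference was 1.20 ± 0.03 or 2.3-fold (adjusted p = 3.34e-18). Rrm1, the large subunit of ribonucleotide reductase, was higher by 0.99 ± 0.12 (adjusted p = 1.16e-07), on both of its tested probe sets. Rrm2, the small subunit, went the other way, by -1.78 ± 0.39 (adjusted p = 0.000315, 15 of 18 animals), and all 3 of its probe sets were lower in bound. In bound arrays Rrm2 ran from 1.84 to 5.35 (median 3.98) in sleep, 2.20 to 7.24 (median 5.50) in waking and 2.36 to 7.10 (median 5.15) in sleep deprivation, a wide scatter that overlapped with the unbound arrays in each state. Tyms, thymidylate synthase, was lower in 18 of 18 animals (difference -1.64 ± 0.06, adjusted p = 4.5e-16), and its mean was near background in both fractions. The clamp loader subunits Rfc3 and Rfc4 did not pass (0.13, 95% interval -0.24 to 0.50, and 0.22, -0.05 to 0.49). The other tested probe set of Rfc4 was called higher in bound (0.61, adjusted p = 0.00123), and Rfc3 passed after quantile normalization over all arrays (0.67, adjusted p = 0.00194).

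Among G1 cyclins and kinases 4 of 5 were lower in bound. Ccnd2, cyclin D2, ran from 7.99 to 8.73 (median 8.65), 8.98 to 9.25 (median 9.11) and 8.53 to 8.86 (median 8.63) in bound arrays of sleep, waking and sleep deprivation. In unbound arrays it ran from 10.30 to 10.85 (median 10.51), 10.81 to 10.99 (median 10.96) and 10.69 to 10.93 (median 10.81). No bound array reached an unbound one. Ccnd2 was lower in bound (difference -2.01 ± 0.06, 4.03-fold, adjusted p = 9.05e-17), in 18 of 18 animals and on all 7 probe sets. Cdk6 was lower (-1.56 ± 0.12, adjusted p = 2e-10), as was Ccnd1 (-1.16 ± 0.07, adjusted p = 2.03e-12), each in 18 of 18 animals. Cdk4, the partner kinase of the same cyclins, was higher by 0.90 ± 0.07 (adjusted p = 1.81e-10), in 18 of 18 animals and on all 3 probe sets. Ccnd3 was lower on its brightest probe set (-0.61, adjusted p = 5.52e-05), but its other tested probe set was higher in bound by 0.90, so its direction depended on the probe set. The 3 tested G1/S genes Ccne1 (-1.64 ± 0.14), Ccne2 (-1.07 ± 0.20) and E2f1 (-0.79 ± 0.08) were all lower in bound.

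Of the 8 tested mitotic genes 6 were lower in bound and Cdc20, an activator of the anaphase-promoting complex, was higher by 0.25 (adjusted p = 0.0351). Mki67, which encodes the proliferation antigen Ki-67, ran from 3.93 to 5.31 (median 4.60), 3.90 to 5.70 (median 4.19) and 3.85 to 4.89 (median 4.28) in bound arrays of sleep, waking and sleep deprivation. In unbound arrays it ran from 5.54 to 6.77 (median 6.53), 5.36 to 6.89 (median 5.92) and 4.08 to 8.11 (median 6.62). The ranges overlapped in waking and sleep deprivation, and within each of 18 animals bound was below unbound. The difference was -1.86 ± 0.18 (adjusted p = 4.3e-09). Cdc25b, a phosphatase that activates Cdk1, differed by -1.66 ± 0.14 (17 of 18 animals, adjusted p = 4.84e-10). Ccna2 (-0.94 ± 0.10), Plk1 (-0.55 ± 0.10), Bub1b (-0.49 ± 0.10) and Cdk1 (-0.41 ± 0.08) were also lower, the last 3 as deposited but not after quantile normalization over all arrays. Aurka did not pass (0.00, 95% interval -0.38 to 0.39). Cdc20 had probe sets called in both directions. Chek2 was called lower with a small difference (-0.26, adjusted p = 0.0458), in 10 of 18 animals, and its sign differed between states, as described with the states. Rad54l did not pass (-0.57, adjusted p = 0.0619). Of the 9 precursor markers 8 were also lower in bound. Their summed level was 9.19 to 9.95 over bound arrays and 10.5 to 11.2 over unbound arrays. Neuroblast (median -2.60), neuron (-1.49), microglia (-2.57) and most astrocyte (-1.91) markers were lower too, as were 58.1% of all genes. The part of any cell type in these differences was not tested.

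The levels of the fractions depended on scaling. After quantile normalization over all 36 arrays the median of all genes moved from -0.35 to 0.08, the share of higher calls among all calls from 30.5% to 53.6%, and the 31 genes from 8 higher and 17 lower to 16 higher and 10 lower. Ccnd3 (-0.01) and Ccne2 (-0.37) then lost the call. Rfc3 and some of Mcm2, Mcm6, Rfc4, Aurka and Rad54l, not called as deposited, were then called higher. A missing call between fractions thus also depended on scaling.

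Other genes of replication, from a list of 40 with 34 tested, had 19 higher and 6 lower in bound (median 0.46, against -0.35 over all genes). Of all genes tested 25.5% were higher and 58.1% lower, against which the counts of each list are to be read. The genes with the smallest p were Gins4 (1.89 ± 0.06), a helicase cofactor, the polymerase delta subunit Pold2 (1.44 ± 0.13) and the clamp loader subunit Rfc1 (0.93 ± 0.07), all higher, and Dut (-1.32 ± 0.09), which breaks down dUTP, lower. Of 29 other mitotic genes 17 were lower, a share near that of all genes, and 5 higher (median -0.47). Among these Anln (3.32 ± 0.07), which encodes the cytoskeletal protein anillin, the condensin subunit Smc4 (1.42 ± 0.08) and the checkpoint protein gene Bub3 (0.78 ± 0.05) were higher, and Wee1 (-2.00 ± 0.12), a kinase that inhibits Cdk1, was lower. Of 13 CDK inhibitors and G1 brakes 5 were higher and 4 lower (median 0.05), with Cdkn2c (1.31), Cdkn1b (0.99) and Rbl2 (0.98) higher and Btg1 (-1.04) lower. Of 14 E2F, Myc and mitotic transcription factors 3 were higher and 8 lower (median -0.46), and of 7 other checkpoint and repair genes 4 were lower (median -0.45), also near the share of all genes, among them Fancd2 (-1.66 ± 0.14) and Brca1 (-0.72 ± 0.13).

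Between states fewer of these genes passed the test. In each of the 6 contrasts between states, 1 to 5 of the 31 genes passed, and 8 passed in at least 1 of them: Ccnd2, Mcm4, Rfc3, Rrm2, Tyms, Cdc25b, Chek2 and Rad54l. The other 23 passed neither there nor in the tests of a difference between fractions. Of the 8, Ccnd2, Mcm4 and Rfc3 were above background in both fractions, 5 were near background in bound and 3 of those also in unbound, so that 9 of the 15 calls were made where the gene was near background. Genes not expressed in brain were themselves called when no filter was set: 20.6% to 27.8% of 97 such genes over the 6 contrasts, against 11.7% to 19.5% of all 18193 genes.

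**Figure D2:**
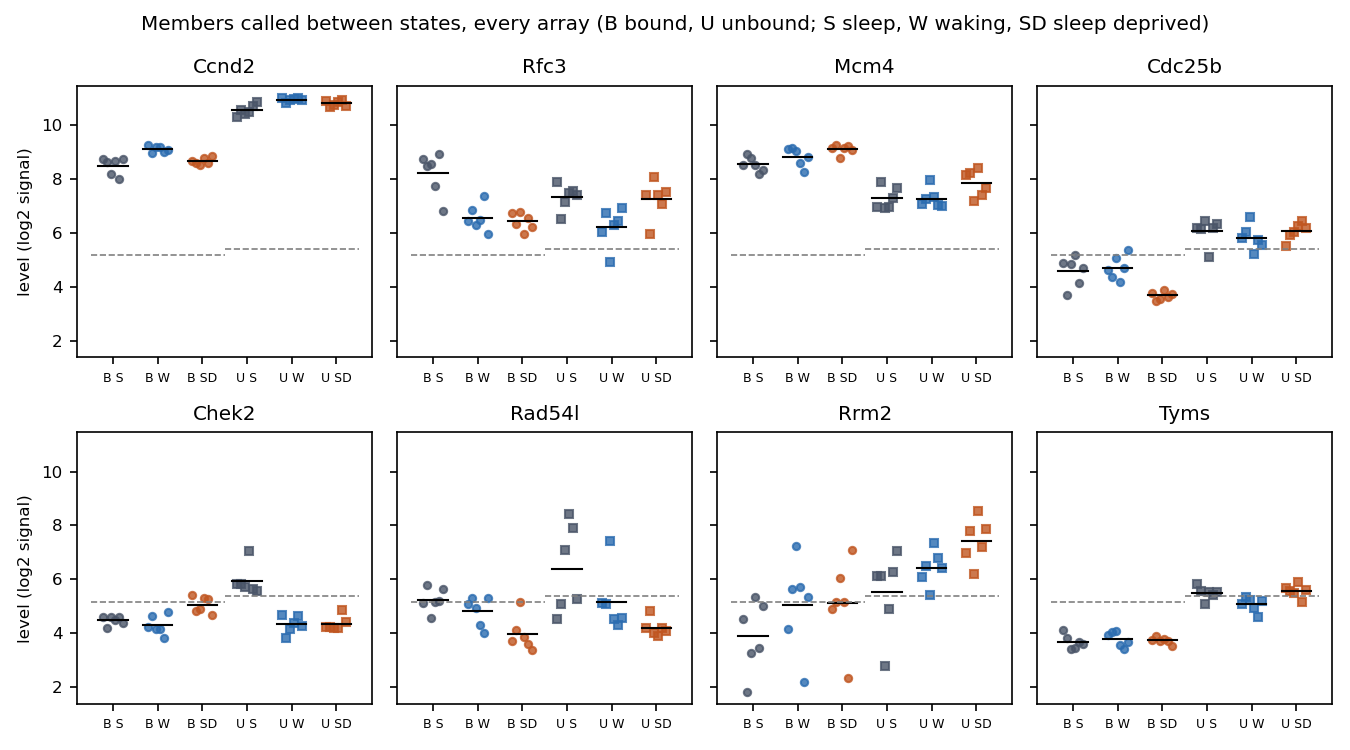
Level on every array (log2 signal, vertical axis) of the 8 genes called in a contrast between states; B and U are bound and unbound, S, W and SD sleep, waking and sleep deprivation, points are arrays, black lines group means of 6, and dashed lines the limits of 5.17 (bound) and 5.40 (unbound) below which a gene is near background. Rfc3 is high in bound sleep, Chek2 is high in unbound sleep, and Rrm2 is widely scattered in the bound groups.

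In bound RNA, waking against sleep asks how RNA of the pulled-down fraction differs between spontaneous waking in the dark and sleep in the light. There 2 of the 31 genes passed (6.45%, against 9.47% of all genes tested): Ccnd2 was higher (4.68% of all genes were) and Rfc3 lower (4.79%). In sleep deprivation against sleep 5 passed (16.1%, against 14.4%): Mcm4 and Chek2 were higher (7.53% of all genes were) and Rfc3, Rad54l and Cdc25b lower (6.87%). In sleep deprivation against waking 2 passed (6.45%, against 5.01%): Chek2 was higher (2.69% of all genes were) and Cdc25b lower (2.32%). The median changes of the 31 genes were 0.01, 0.04 and -0.02, and those of all genes -0.01, -0.01 and 0.01. Groups did not overlap for 2, 4 and 3 of the 31 genes, where 5.68%, 7.33% and 3.76% of all genes were without overlap.

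In unbound RNA, waking against sleep had 2 calls (6.45%, against 7.21% of all genes tested): Ccnd2 was higher (1.49% of all genes were) and Chek2 lower (5.72%). Sleep deprivation against sleep had 3 (9.68%, against 7.82%): Rrm2 was higher (4.65% of all genes were) and Chek2 and Rad54l lower (3.17%). Sleep deprivation against waking had 1 (3.23%, against 9.94%): Tyms was higher (8.45% of all genes were), and none of the 31 was lower (1.49%), with 4 genes at an unadjusted limma p under 0.05. The median changes were -0.06, 0.03 and 0.10, and those of all genes -0.09, 0.02 and 0.11. Groups did not overlap for 1, 1 and 0 genes, against 4.45%, 5.14% and 5.45% of all genes. Scaling moved the split of all calls here: the share of higher calls went from 20.6% to 50.1% in waking against sleep and from 85% to 48.6% in sleep deprivation against waking after quantile normalization over all arrays. The direction of the calls of Ccnd2, Chek2, Rad54l and Rrm2 was the same under it, and the call of Tyms was lost.

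**Figure D3:**
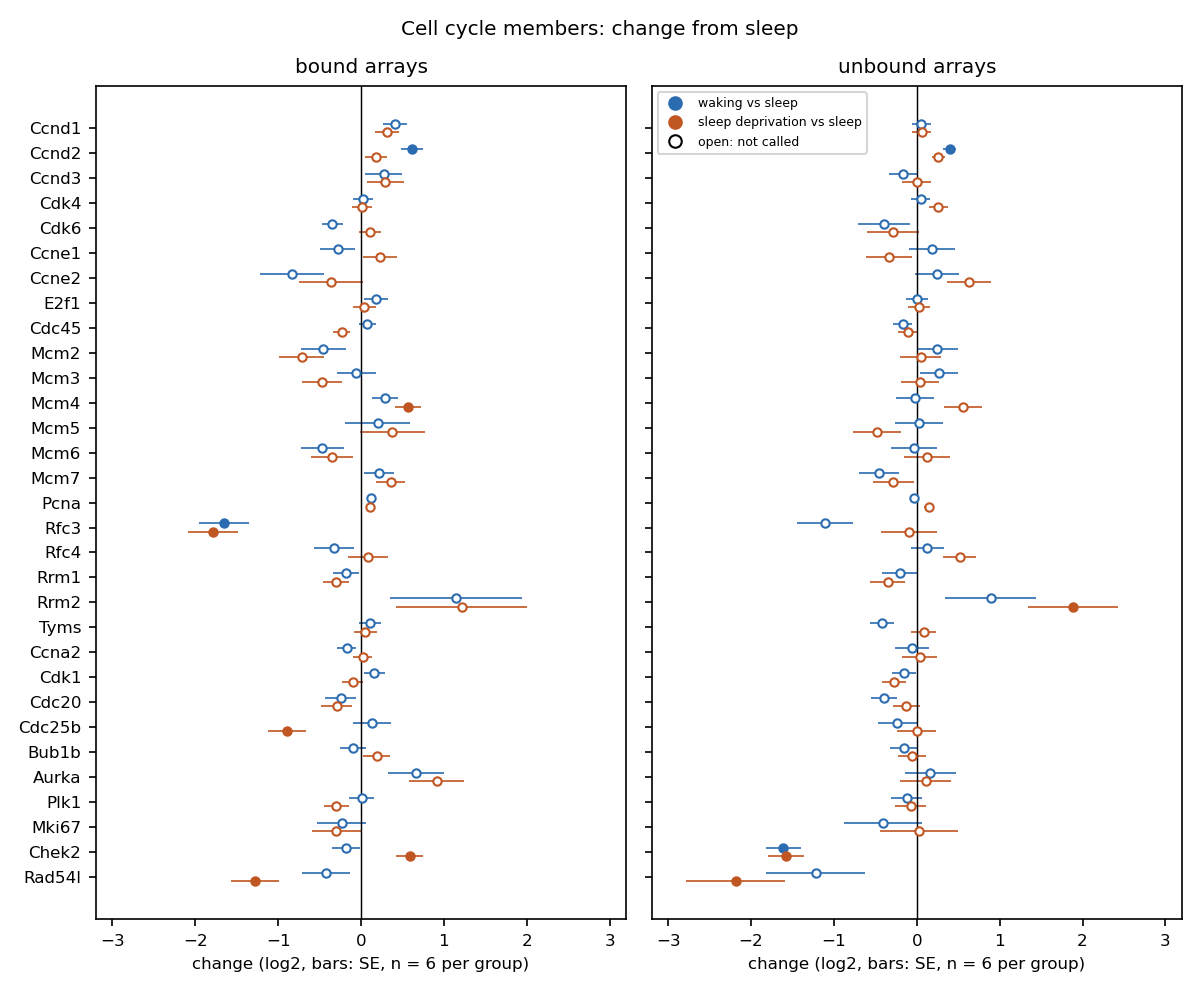
Change from sleep (log2, horizontal axis) in waking and in sleep deprivation for the 31 tested genes, in bound arrays (left) and unbound arrays (right); points are differences of group means of 6, bars the standard error, and open points did not pass the test. Most points lie within 1 log2 unit of 0, and the few filled points belong to the 8 genes named in the text.

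Ccnd2 was the G1 gene that changed. In bound RNA its lowest waking array (8.98) stood above its highest sleep array (8.73), and the sleep-deprived arrays overlapped sleep. It rose in waking by 0.62 ± 0.13 (SE, 6 against 6 arrays, limma adjusted p = 0.00568). In unbound RNA the waking arrays, 10.81 to 10.99, overlapped only the highest sleep array (10.85). Ccnd2 rose there by 0.40 ± 0.08 (adjusted p = 0.00701). In sleep deprivation its changes from sleep were 0.18 in bound and 0.26 in unbound (adjusted p = 0.385 and 0.0578). Of its 6 other probe sets, 5 went up in bound with none passing, and 4 in unbound, 2 of them passing. With the mean of all its probe sets the changes were 0.31 (adjusted p = 0.188) and 0.20 (adjusted p = 0.127), so both calls were lost, while the change in unbound sleep deprivation against sleep passed (0.33, adjusted p = 0.0157). Ccnd1, cyclin D1, had bound waking arrays entirely above sleep arrays but did not pass (0.41 ± 0.14, adjusted p = 0.0816). Cdk4, Cdk6 and Ccnd3 passed in no state contrast, nor did Ccne1, Ccne2 and E2f1.

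Of the helicase genes Mcm4 was called in 1 contrast: bound sleep-deprived arrays ran from 8.76 to 9.28 and sleep arrays from 8.20 to 8.93, an overlap of the lowest sleep-deprived array with the upper sleep arrays. The rise was 0.57 ± 0.16 (adjusted p = 0.021). Its other probe set changed by 0.12 ± 0.15 (adjusted p = 0.648), and with the mean of both the change was 0.34 (adjusted p = 0.0657). Mcm2, Mcm3, Mcm5, Mcm6, Mcm7 and Cdc45 passed in no state contrast of the main fits. In a fit without the intensity trend Cdc45 was lower in bound sleep deprivation than in sleep (-0.23, adjusted p = 0.0488) and waking (-0.31, adjusted p = 0.0233). Of the uncalled helicase genes, Mcm2 in bound sleep deprivation had the largest change from sleep in that fraction, -0.72 ± 0.27 (adjusted p = 0.0836). Pcna, measured most precisely, differed between states by at most 0.17 (unbound sleep deprivation against waking, adjusted p = 0.0691). That change passed in the fit on means of probe sets (0.17, adjusted p = 0.0416). Its bound sleep-deprived arrays were above all sleep arrays by a small amount, 0.11 ± 0.05, which did not pass (adjusted p = 0.193).

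Rfc3, a subunit of the clamp loader, had the largest called change between states in bound RNA. Its bound sleep arrays ran from 6.82 to 8.94 (median 8.51), waking arrays from 5.94 to 7.36 (median 6.45) and sleep-deprived arrays from 5.94 to 6.76 (median 6.44). Sleep stood above sleep deprivation without overlap, and only sleep array 6 (6.82) reached into the waking range. Rfc3 fell by 1.65 ± 0.30 in waking (3.14-fold, adjusted p = 0.00227) and fell by 1.78 ± 0.30 in sleep deprivation (3.45-fold, adjusted p = 0.000606). In unbound arrays it ran from 6.53 to 7.90 (median 7.43) in sleep, 4.93 to 6.92 (median 6.36) in waking and 5.97 to 8.09 (median 7.40) in sleep deprivation, so the groups overlapped. The change of -1.11 ± 0.34 in unbound waking just missed the threshold (adjusted p = 0.0505), and that in sleep deprivation was -0.09. The change in sleep deprivation differed between fractions by -1.69 ± 0.43 (adjusted p = 0.023). The change differed in size between probe sets. These values are from the probe set with the highest mean. Like the probe set of Cdc25b, it is of a type that Affymetrix marks as matching alternative transcripts of a gene. The other Rfc3 probe set had bound means of 6.66, 6.54 and 6.63 in sleep, waking and sleep deprivation and changes of -0.11 ± 0.17 and -0.02 ± 0.17. With the mean of both probe sets the bound changes were -0.88 (adjusted p = 0.00622) and -0.90 (adjusted p = 0.00329), and the difference between fractions was lost (-0.80, adjusted p = 0.0598). By that mean Rfc3 also passed in unbound RNA, lower in waking than in sleep (-0.70, adjusted p = 0.0252) and higher in sleep deprivation than in waking (0.59, adjusted p = 0.0485).

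**Figure D4:**
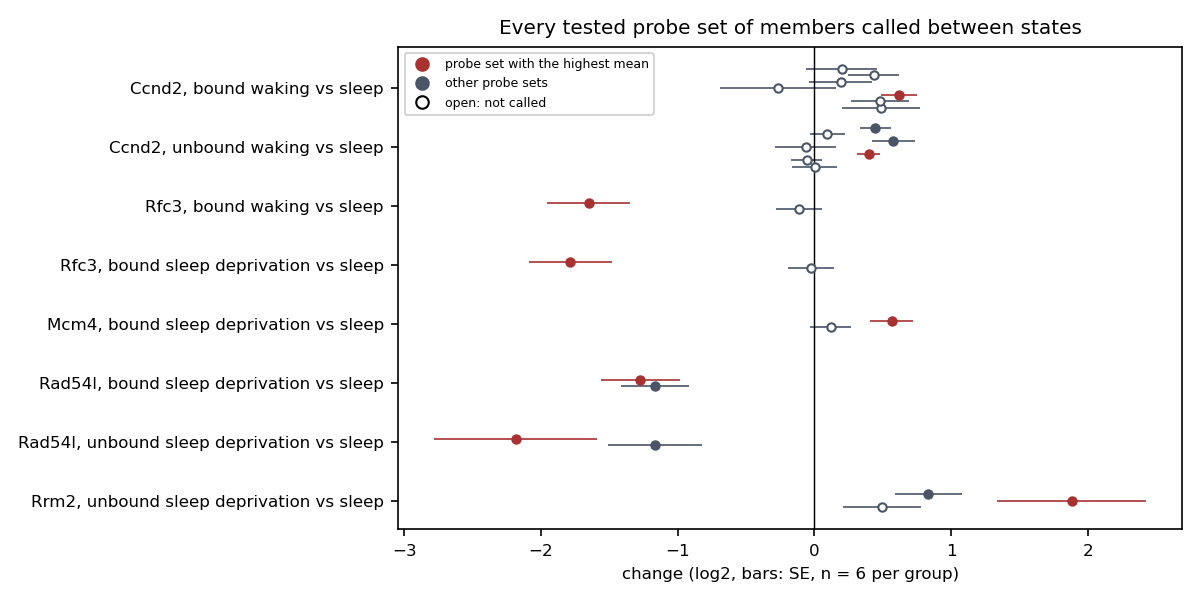
Change from sleep (log2, horizontal axis) on every tested probe set of the genes called between states that have more than 1; red points are the probe set with the highest mean, grey points the others, bars the standard error, and open points did not pass the test. The probe sets of Rad54l both fall, while for Rfc3 the second probe set lies near 0.

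In nucleotide supply, Rrm2 in unbound RNA ran from 2.77 to 7.04 (median 6.13) in sleep, 5.43 to 7.36 (median 6.46) in waking and 6.21 to 8.53 (median 7.49) in sleep deprivation. The groups overlapped, and sleep array 3 (2.77) was the lowest. Rrm2 rose in sleep deprivation by 1.88 ± 0.55 (adjusted p = 0.0391), and on its other probe sets by 0.83 ± 0.24 (adjusted p = 0.0418) and, without passing, 0.49 ± 0.29. Sex-linked genes separated 3 animals (waking 3 and 5 and sleep-deprived 11) from the others, and leaving them out ended the call (1.79, adjusted p = 0.0768), as did a fit without the intensity trend (adjusted p = 0.0512). Tyms in unbound RNA ran from 5.10 to 5.82 (median 5.52), 4.62 to 5.35 (median 5.15) and 5.17 to 5.89 (median 5.60) in sleep, waking and sleep deprivation, close to the background limit of 5.40. It was higher in sleep deprivation than in waking by 0.50 ± 0.15 (adjusted p = 0.0386), with overlap. In bound RNA it lay between 3.42 and 4.10 in every state, below background. Tyms had called differences between fractions of 0.52 ± 0.14 in waking against sleep (adjusted p = 0.0344) and -0.55 ± 0.14 in sleep deprivation against waking (adjusted p = 0.0312). None of these 3 calls held after quantile normalization (0.42, 0.40 and -0.43) or without the same 3 animals (adjusted p = 0.152, 0.141 and 0.184).

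Among mitotic genes Cdc25b was called. Its bound arrays ran from 3.68 to 5.19 (median 4.76) in sleep, 4.17 to 5.35 (median 4.65) in waking and 3.47 to 3.88 (median 3.69) in sleep deprivation, all but 2 below the background limit of 5.17. The sleep-deprived arrays were below every waking array and overlapped only with sleep array 2. Cdc25b fell by 0.90 ± 0.23 from sleep (adjusted p = 0.0122) and fell by 1.03 ± 0.23 from waking (adjusted p = 0.0125). Unbound arrays ran from 5.10 to 6.45 (median 6.17), 5.23 to 6.59 (median 5.77) and 5.50 to 6.44 (median 6.10), without a call. The contrast of sleep deprivation with waking differed between fractions by -1.26 ± 0.33 (adjusted p = 0.0368). Without the 3 animals the call against waking was lost (adjusted p = 0.0925), as was the difference between fractions (adjusted p = 0.114). That difference was also lost after quantile normalization over all arrays (-1.14, adjusted p = 0.0695) or within fractions (-1.12, adjusted p = 0.0715). The other mitotic genes, Ccna2, Cdk1, Cdc20, Bub1b, Aurka, Plk1 and Mki67, passed in no state contrast of the main fits. With the mean of its probe sets Cdc20 was higher in unbound sleep deprivation than in waking (0.47, adjusted p = 0.0285). Aurka, a centrosome kinase, had changes of 0.67 ± 0.33 and 0.91 ± 0.33 in bound waking and sleep deprivation (adjusted p = 0.228 and 0.0733).

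Chek2, a checkpoint kinase that acts on DNA breaks, had called changes of opposite sign in the fractions in sleep deprivation against sleep. In unbound RNA it ran from 5.56 to 7.04 (median 5.78) in sleep, 3.84 to 4.69 (median 4.32) in waking and 4.18 to 4.87 (median 4.24) in sleep deprivation. Every sleep array was above the background limit of 5.40 and every waking and sleep-deprived array below it. Chek2 fell by 1.61 ± 0.21 in waking (3.05-fold, adjusted p = 0.000213) and fell by 1.58 ± 0.21 in sleep deprivation (adjusted p = 0.000148). In bound RNA it ran from 4.19 to 4.62 (median 4.54), 3.82 to 4.78 (median 4.21) and 4.69 to 5.43 (median 5.08), near or below background. It rose there in sleep deprivation by 0.59 ± 0.17 from sleep (adjusted p = 0.0242), without overlap, and by 0.77 ± 0.17 from waking (adjusted p = 0.0118), the latter lost without the 3 animals (adjusted p = 0.0577). The changes from sleep differed between fractions by 1.43 ± 0.29 in waking (adjusted p = 0.00667) and 2.17 ± 0.29 in sleep deprivation (adjusted p = 0.000151). Chek2 has a single probe set.

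Rad54l, a DNA translocase of homologous recombination, ran from 4.57 to 5.78 (median 5.17) in bound sleep, 4.02 to 5.30 (median 5.01) in waking and 3.36 to 5.16 (median 3.79) in sleep deprivation. In unbound arrays it ran from 4.53 to 8.41 (median 6.19), 4.29 to 7.43 (median 4.82) and 3.90 to 4.82 (median 4.14). Sleep and sleep deprivation overlapped in both fractions. Rad54l fell in sleep deprivation by 1.27 ± 0.29 in bound (adjusted p = 0.00601) and fell by 2.18 ± 0.60 in unbound (adjusted p = 0.0291). Its second probe set also fell (-1.17 ± 0.25 in bound, adjusted p = 0.00404, and -1.17 ± 0.35 in unbound, adjusted p = 0.0439). Most of these levels lay near background.

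Over the 31 tested genes the 95% interval of a change between states had a median half-width of 0.37 log2 in bound and 0.45 in unbound. In each of these contrasts 21 to 26 of the genes that were not called had an interval within 2-fold in either direction. In the tests of whether a change differed between fractions, the half-width was 0.60. For waking against sleep 2 of the 31 genes passed (6.45%, against 5.34% of all genes tested), Chek2 and Tyms, both higher (3.94% of all genes were) and none lower (1.4%). For sleep deprivation against sleep 2 passed (6.45%, against 6.24%), Chek2 higher (3.03%) and Rfc3 lower (3.21%). For sleep deprivation against waking 2 passed (6.45%, against 4.27%), Cdc25b and Tyms, both lower (3.17%) and none higher (1.09%). Quantile normalization over all arrays moved the share of higher calls among all genes from 73.8% to 56% in waking against sleep and from 25.6% to 51.4% in sleep deprivation against waking.

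The other genes of the pathway, 124 in lists chosen by function with 97 tested, had 5 higher and 5 lower in bound waking against sleep (10.3%) and 7 higher and 8 lower in bound sleep deprivation against sleep (15.5%), close to the background shares of 9.47% and 14.4%. In bound sleep deprivation against waking 1 was higher and 3 lower (4.12%, against 5.01%). Among the CDK inhibitors and G1 brakes, 4 of 13 rose and none fell in bound waking: Rbl2 by 0.43, Btg1 by 0.58, Cdkn1b by 0.31 and Cdkn2d by 0.42. Of all genes tested 4.68% rose and 4.79% fell there. In bound sleep deprivation 4 of 13 rose, Cdkn1a by 4.60 ± 0.49, Ccng2 by 0.43, Ccng1 by 0.32 and Cdkn1b by 0.30. Cdkn2c fell (change -0.52), a gene named after its value was seen. In that contrast 7.53% of all genes tested rose and 6.87% fell. In unbound RNA the pathway lists had 2 higher and 2 lower in waking against sleep (4.12%), 4 higher and 3 lower in sleep deprivation against sleep (7.22%) and 3 higher and 3 lower in sleep deprivation against waking (6.19%), where 7.21%, 7.82% and 9.94% of all genes passed. Of the CDK inhibitors and G1 brakes there, Btg2 rose in waking (1.35 ± 0.26) and Cdkn1a in sleep deprivation (1.96 ± 0.13 from sleep, adjusted p = 1.15e-08). Of 34 other replication genes none rose in bound in either contrast with sleep, and 2 fell in waking (Rpa2, change -0.44, and Dut, -0.61) and 3 in sleep deprivation (Dut, -0.91, the histone chaperone subunit Chaf1b, -0.90, and Tipin, -0.42). Of all genes 4.79% and 6.87% fell in these contrasts, so the numbers of falls are near the background. The damage-sensing kinase Atr fell in both (changes -1.05 and -1.11). Of 9 precursor markers, Lhfpl3 was called lower in bound sleep deprivation (change -1.33 from sleep), and none was called in waking against sleep in either fraction.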

How the data were processed

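Bound and unbound RNA from 18 mice was hybridised to 36 Affymetrix arrays of 45101 probe sets. The files hold log2 signals, which the authors deposited and for which the submitters' processing notes name RMA. Whether 1 normalization spanned both fractions is not stated in the labels. No rescaling was applied to the main values. Array values carry no read depth, and precision is limited by the number of arrays.

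Probe sets naming 1 gene (34945) were reduced to the brightest per gene. Genes were tested where the mean reached the 40th percentile of probe sets in at least 1 fraction. Groups were compared within each fraction with limma 3.58.1 (R 4.3.3, empirical Bayes with trend), and fractions on differences within animals, with Benjamini-Hochberg adjustment over all 13924 genes and a threshold of 0.05. The fits were tested on simulated data. Bound and unbound arrays of an animal are paired by design (correlation of deviations -0.00 to 0.08). The labels call the animals biological replicates.

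Values by array are given for genes called between states or in a difference between fractions and for the 4 largest rises and falls between fractions, and of each other list up to 4 called genes with the smallest p. The genes and lists were chosen with earlier results of these data known. Alternatives were no filter, a stricter filter, the mean of probe sets, quantile normalization over all arrays or within fractions, no trend, the replicate block, 3 animals left out and, chosen after seeing the data, every probe set tested on its own.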

Additional observations from a re-analysis of the deposited data

Results flagged for a closer look

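In 12 of the 72 groups of 6 arrays examined for the 12 genes given by array, 1 array stood apart from the other 5 by Dixon's gap test. The nominal rate of that test is about 1 in 20 groups, for independent groups of normally distributed values. The share over all genes was not computed, and these 12 genes were picked by their calls and differences on shared arrays. Whether 12 of 72 is particular to them was therefore not tested. High arrays in unbound RNA were Mcm3 in sleep animal 2 (7.06, nearest 5.88), Mcm4 in waking animal 3 (7.96, nearest 7.33), Chek2 in sleep animal 4 (7.04, nearest 5.84), Chek2 in sleep-deprived animal 10 (4.87, nearest 4.43), Rad54l in waking animal 3 (7.43, nearest 5.12) and Rad54l in sleep-deprived animal 7 (4.82, nearest 4.19). Low arrays in unbound RNA were Ccnd2 in waking animal 2 (10.81, nearest 10.93), Pcna in sleep-deprived animal 9 (10.86, nearest 11.01), Cdc25b in sleep animal 4 (5.10, nearest 6.13) and Mki67 in sleep animal 5 (5.54, nearest 6.48). In bound RNA Mki67 in waking animal 3 (5.70, nearest 4.20) and Pcna in sleep-deprived animal 7 (12.27, nearest 12.14) were high. Waking animal 3, which gave 3 of these values, is also among the 3 animals that sex-linked genes set apart.

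The tests of a difference between fractions passed for 6 changes. Chek2 differed by 1.43 in waking against sleep and by 2.17 in sleep deprivation against sleep, Rfc3 by -1.69 in sleep deprivation against sleep, Cdc25b by -1.26 in sleep deprivation against waking, and Tyms by 0.52 in waking against sleep and -0.55 in sleep deprivation against waking.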

How the results depend on the processing

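Counts of called genes among the cell cycle genes moved most with the filter, which also changed how many of them were tested. With the stricter filter 20 of them were tested in bound RNA and between fractions, and 26 in unbound RNA. In bound sleep deprivation 2 passed against sleep and 0 against waking, where 1563 and 318 of all 11705 genes tested passed. In bound against unbound 15 of 20 passed, against 9459 of 11456 genes. In unbound RNA 1, 1 and 0 passed in waking against sleep, sleep deprivation against sleep and sleep deprivation against waking. There 779, 875 and 1107 of 12720 genes passed. In the differences between fractions of the same contrasts 0, 1 and 0 passed, against 391, 497 and 258 of 11456 genes. With no filter 38 were tested. The counts were 5 in bound waking against sleep and 6 in bound sleep deprivation against waking. In unbound sleep deprivation they were 5 against sleep and 3 against waking. Of all genes 15.5%, 11.7%, 13.6% and 15.2% passed in these contrasts. With the mean of probe sets 26 were tested, among 13234 genes. The counts were 1 in bound waking against sleep, 3 in bound sleep deprivation against sleep and 3 in unbound sleep deprivation against waking. Of all genes 1456, 2169 and 1458 passed there. In each difference between fractions 1 passed, against 917 (waking against sleep), 988 (sleep deprivation against sleep) and 828 (sleep deprivation against waking) of all genes. Quantile normalization, over all arrays or within fractions, gave 4 in bound and 0 in unbound sleep deprivation against waking, and 1 and 0 in the differences between fractions of waking against sleep and sleep deprivation against waking. In the same order 718, 584, 582 and 463 of all 13931 genes passed with normalization over all arrays. Within fractions 718, 582, 601 and 439 of 13925 passed. Without the 3 animals the counts were 1 in bound and 0 in unbound sleep deprivation against waking, and 1 and 0 in the differences between fractions of waking against sleep and sleep deprivation against waking. Calls over all genes fell as well. In the same order 237, 717, 383 and 196 of 13921 passed, against 698, 1384, 744 and 594 in the main fits. Without the trend bound sleep deprivation against waking gave 5, where 765 of all 13924 genes passed. Every probe set was also tested on its own. In unbound sleep deprivation against sleep 9 of 65 probe sets of these genes then passed, against 7.56% of all 25422. In the main limma fits of sleep deprivation against waking, 7 (bound), 4 (unbound) and 7 (between fractions) genes had an unadjusted p under 0.05. For waking against sleep between fractions 4 genes had one. Such numbers are not given here for the alternative fits with a count of 0. Quantile normalization over all arrays reversed bound against unbound for Bub1b (0.23), Cdc45 (0.014), Cdk1 (0.28), Chek2 (0.44) and Plk1 (0.16). Sleep and waking mice share only numbers, not animals (correlation -0.00 to 0.09 bound, -0.01 to 0.10 unbound). With the replicate block by number the calls of Ccnd2 (adjusted p = 0.0262 bound, 0.0487 unbound), Rfc3 (0.00424) and Chek2 (0.0125) were kept, and the fit of fractions with no replicate block gave 1 call in waking against sleep and 1 in sleep deprivation against waking. In that fit 868 and 721 of all 13924 genes passed. Of the values for single genes 401 kept direction and side of the threshold, 29 lost the call and 7 gained one. The cause of these moves was not tested.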
